A study of Mus musculus with 30 samples.

Results

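The prohormone processing machinery was followed through 6 genes, Pcsk1, Pcsk2, Pcsk1n, Cpe, Scg5 and Pam, chosen by name out of the 17775 genes in the deposited table. Hormones of islet cells are made as long precursors that are cut inside the secretory granule. The convertases encoded by Pcsk1 and Pcsk2 cut after pairs of basic residues, the carboxypeptidase encoded by Cpe removes those residues from the new ends, and Pam adds the C-terminal amide that some peptide hormones carry. Scg5 encodes the chaperone that Pcsk2 needs to mature, and Pcsk1n encodes a granule protein that inhibits the enzyme made from Pcsk1. In alpha-cells the Pcsk2 enzyme releases glucagon from proglucagon, and in beta-cells both convertases take part in making insulin from proinsulin.

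The libraries were bulk RNA-seq of cells sorted by fluorescence from mouse islets, 30 in 5 groups. The group called alpha Pdx1 DT (n = 6) held alpha-cells from mice with CAG-Pdx1 and the R26YFP reporter under the control of Glucagon-rtTA and TetO-Cre, which also carried RIP-DTR and were taken 30 days after diphtheria toxin. The group alpha Pdx1 (n = 5) had the same Pdx1 and reporter alleles without RIP-DTR and without toxin, in mice aged 3 months. The group alpha DT (n = 4) held alpha-cells of Glucagon-Venus mice with RIP-DTR, also 30 days after the toxin, which both DT groups received at 2 months of age. Beta (n = 7) was sorted from Insulin-mCherry mice and alpha (n = 8) from Glucagon-Venus mice, both aged 3 months. RIP is an insulin promoter, so the toxin receptor is made where insulin is made. Alpha Pdx1 and alpha differ in their reporter and driver alleles as well as in Pdx1, and these cannot be told apart. The same holds for alpha Pdx1 DT against alpha or alpha DT. Each DT group differs from its group without toxin in RIP-DTR as well as in toxin, which cannot be told apart either. Below, the toxin difference means both together. The comparisons address whether alpha-cells made to express Pdx1, with or without loss of beta-cells, take up the processing machinery of beta-cells.

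All values are quantile-normalized log2 values as the authors deposited them. Read numbers are not in the table, so depth is unknown. The first quartile lay between 5.93 and 5.96, and below it the libraries held between 32 and 110 different values each. At the upper ranks the libraries share one set of values apart from ties, so the value of an abundant gene is set by its rank and its fold change is a change of rank. Values were not corrected for gene length, so levels are compared between libraries and not between genes. The labels do not say that libraries came from separate mice, so p-values measure the spread between these samples, which may be technical. In bulk RNA, fewer cells of a type and less RNA per cell cannot be told apart. The numbers after a group name only name a library and pair nothing.

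Among the 30, 5 libraries went against their labels or stood apart. The library labelled alpha 8 had a Pdx1 value of 11.23, against 3.66 to 5.61 in the other alpha libraries, and an Ins2 value of 19.27. The library labelled alpha Pdx1 DT 5 had a Pdx1 value of 5.51, against 11.53 to 12.59 in the others of its group. Its Ins2 value was 12.77, against 12.64 in alpha 4, 12.79 in alpha 2 and 12.83 in alpha DT 1. Alpha Pdx1 5 had a Pdx1 value of 8.61, against 10.78 to 11.83 in the others, and beta 1 and beta 5 had Gcg at the top value of 22.57. Results are given with these 5 libraries, and without them where the call of a member changed and for the Cpe differences of alpha Pdx1 DT. In beta minus alpha, 8 of 8 beta-cell markers were higher (16.9% of all genes) and 7 of 7 alpha-cell markers lower (17.6%). Markers of other cells were also present. The mean of the 8 acinar-cell markers ran from 3.8 in alpha Pdx1 2 to 15.0 in beta 1. Ppy, the PP-cell marker, averaged from 13.15 in beta to 18.37 in alpha DT.

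All 6 genes were tested. Differences come from one limma fit to 30 libraries and 16633 genes, with errors after ± of log2 fold changes as standard errors and p-values adjusted by Benjamini-Hochberg over all genes tested; 0.05 is the threshold.

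The promoters of the convertase pair are shown because beta minus alpha was positive for Pcsk1 and negative for Pcsk2. Each is the 250 bases before the RefSeq transcript start (GRCm38.p6, plus strand), at chr13:75089607-75089856 for Pcsk1 and chr2:143545883-143546132 for Pcsk2. Capitals mark TGACGTCA, the cAMP response element, searched on both strands.
Pcsk1: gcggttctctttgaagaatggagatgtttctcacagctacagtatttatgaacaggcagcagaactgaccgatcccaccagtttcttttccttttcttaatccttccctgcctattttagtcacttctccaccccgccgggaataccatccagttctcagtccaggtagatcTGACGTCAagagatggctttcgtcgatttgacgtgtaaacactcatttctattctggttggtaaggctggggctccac
Pcsk2: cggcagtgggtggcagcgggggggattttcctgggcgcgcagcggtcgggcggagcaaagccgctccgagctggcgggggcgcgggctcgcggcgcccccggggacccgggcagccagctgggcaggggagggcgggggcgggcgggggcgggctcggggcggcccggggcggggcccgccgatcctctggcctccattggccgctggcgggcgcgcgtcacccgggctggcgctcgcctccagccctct
The element occurred 1 time before Pcsk1, starting 78 bases upstream of the RefSeq start, and 0 times in these windows of Pcsk2, Pcsk1n, Scg5 and Pam. Of 32851 mouse windows of this length, 1.55% held it. TAATTA, a core site of homeodomain proteins and the second motif searched, was found in none of these windows and in 4.84% of all of them. The G+C content was 46.8% before Pcsk1 and 82.4% before Pcsk2, against a median of 52.4%. The GENCODE start of Pcsk1 (chr13:75089826) lies inside its window, between the element and the RefSeq start. That of Scg5 also lies inside its window. These matches describe letters only.

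Pcsk1 (chr13:75089826-75134861, plus strand) was higher in beta than in alpha, the 1 member of the 6 that was. It was at 13.02, 14.02 and 14.35 (lowest, median and highest) in beta and at 3.92, 6.79 and 7.37 in alpha. No alpha library came within 5 log2 units of the lowest beta library. Pcsk1 averaged 13.85 ± 0.44 in beta and 6.41 ± 1.11 in alpha (SD, n = 7 and 8). The limma log2 fold change, beta minus alpha, was 7.44 ± 0.47 (adjusted p = 1.46e-13).

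Alpha-cells with Pdx1 did not reach the beta level of Pcsk1. Pcsk1 was, in alpha Pdx1 DT, at 5.13, 7.12 and 8.31 (lowest, median and highest), in alpha Pdx1 at 6.63, 6.16, 7.14, 8.16 and 7.72, and in alpha DT at 7.07, 8.21, 5.90 and 5.06. All 3 groups overlapped alpha, and none overlapped beta. The values of 5.13, 5.90 and 5.06, and the lowest of alpha at 3.92, lay below the first quartile of every library. Against alpha the log2 fold change was 0.56 ± 0.48 in alpha Pdx1 DT (adjusted p = 0.482), 0.75 ± 0.51 in alpha Pdx1 (adjusted p = 0.485) and 0.15 ± 0.55 in alpha DT (adjusted p = 0.911) by limma. The 95% interval for alpha Pdx1 minus alpha ran from -0.29 to 1.80, well below the difference of 7.44 between beta and alpha. Against beta, Pcsk1 was lower by limma in alpha Pdx1 DT (log2 fold change -6.88 ± 0.50, adjusted p = 7.34e-12), in alpha Pdx1 (-6.69 ± 0.53, adjusted p = 4.38e-11) and in alpha DT (-7.29 ± 0.56, adjusted p = 4.48e-11). In order of level, beta came first, then alpha Pdx1, alpha Pdx1 DT, alpha DT and alpha, and only the step after beta passed the test.

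**Figure D1:**
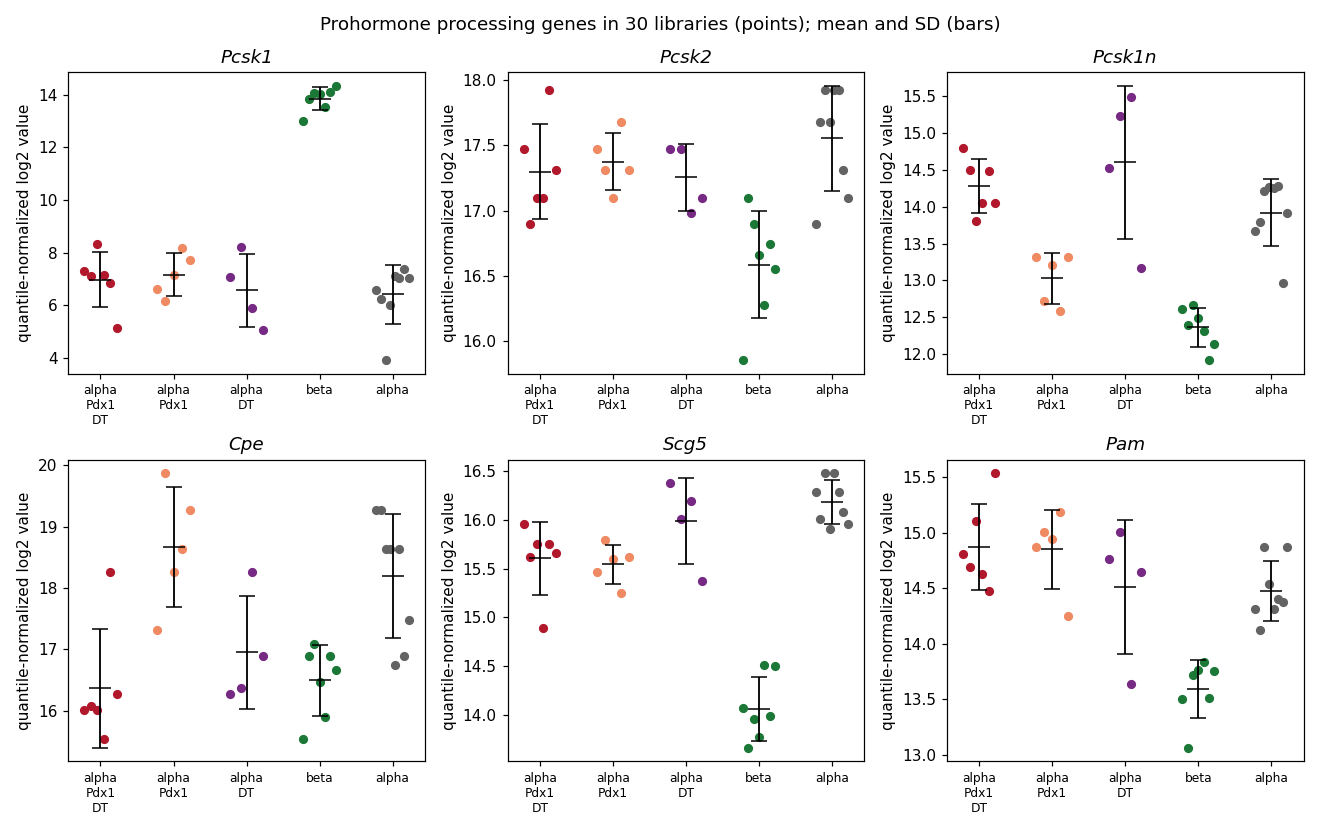
Quantile-normalized log2 value (y axis) of each gene in 30 libraries (points) by group (x axis), with the mean and SD as bars; the y axes differ and do not start at 0. Pcsk1 stands at 13.02 or above in every beta library and at 8.31 or below in every other library, while Scg5 stands lowest in beta.

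Ins2 passed the test in alpha Pdx1 where Pcsk1 did not. Ins2, 1 of the 2 mouse insulin genes, was at 19.27, 17.68, 18.63, 17.92 and 17.09 in alpha Pdx1, and at 12.04, 14.11 and 19.27 (lowest, median and highest) in alpha, where the highest was the library labelled alpha 8. Its log2 fold change in alpha Pdx1 was 3.89 ± 0.97 (limma, adjusted p = 0.0202), while that of Ins1, the other insulin gene, was 3.71 ± 1.09 and missed the threshold (adjusted p = 0.0524). Ins1 was at 18.27 in the doubted library alpha 8 and at 14.96 or below in the other alpha libraries, against 15.11 or above in alpha Pdx1. In alpha Pdx1 DT minus alpha both passed, Ins1 with 4.17 ± 1.04 (limma, adjusted p = 0.0182) and Ins2 with 3.45 ± 0.92 (adjusted p = 0.0253). In the library labelled alpha 8, which had an Ins2 value of 19.27, Pcsk1 was at 7.02, inside the alpha range. Among the 6 alpha Pdx1 DT libraries, 5 had Ins2 at 17.92 or above, and Pcsk1 in those ran from 5.13 to 8.31. Within groups, Pearson's r of Pcsk1 with Ins2 was 0.257 over the 30 libraries and with Pdx1 0.181, as descriptions.

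**Figure D2:**
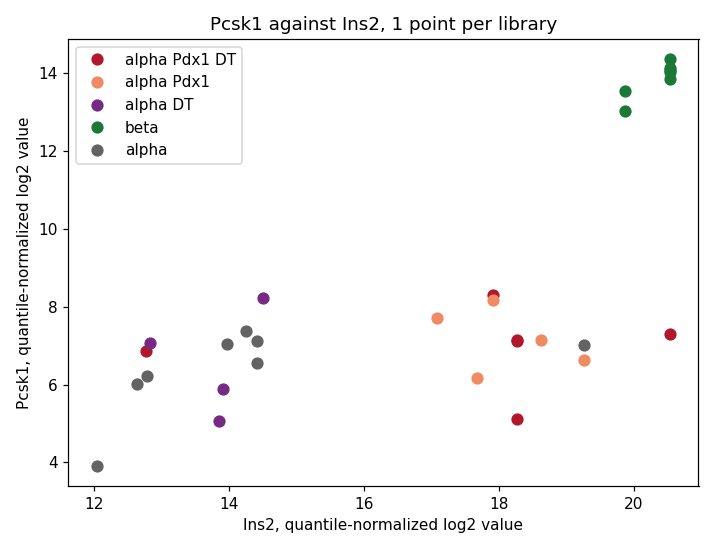
Pcsk1 (y axis) against Ins2 (x axis), both quantile-normalized log2 values, with 1 point per library coloured by group. Beta libraries lie at the upper right with Pcsk1 at 13.02 or above, while 5 of 5 alpha Pdx1 libraries and 5 of 6 alpha Pdx1 DT libraries have Ins2 above 17 and Pcsk1 at 8.31 or below.

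Pcsk2 (chr2:143546156-143816285, plus strand) ran the other way and by far less. It was at 15.86, 16.66 and 17.09 (lowest, median and highest) in beta and at 16.90, 17.68 and 17.92 in alpha, so the groups overlapped. The log2 fold change, beta minus alpha, was -0.97 ± 0.18 (limma, adjusted p = 6.15e-05). Alpha Pdx1 DT ran from 16.90 to 17.92, alpha Pdx1 from 17.09 to 17.68 and alpha DT from 16.98 to 17.47, and none of these differed from alpha past the threshold. The difference of alpha Pdx1 DT from alpha was -0.26 ± 0.19 (limma, adjusted p = 0.398), and -0.64 when scaled to housekeeping genes (adjusted p = 0.0362), which passed. Against beta, Pcsk2 was higher in alpha Pdx1 DT by 0.71 ± 0.19 (limma, adjusted p = 0.00547), in alpha Pdx1 by 0.79 ± 0.20 (adjusted p = 0.00305) and in alpha DT by 0.67 ± 0.22 (adjusted p = 0.0182). Without the 5 doubted libraries the alpha Pdx1 DT difference was 0.38 (adjusted p = 0.122) and the alpha DT difference 0.46 (adjusted p = 0.0671), so both calls ended. The alpha DT call also ended without alpha DT 1 (adjusted p = 0.0593) or alpha DT 2 (adjusted p = 0.0636), with library weights (0.067) and with normal scores of ranks (0.0619). Pcsk2 shares 1682 bases with the antisense gene Pcsk2os1 and 48383 with Pcsk2os2, and neither has values in the table. Pcsk1n shares 135 bases with Eras on the other strand. Among genes with values, Pam shares 26565 bases with B230216N24Rik and 489 with Gm3531, on its own strand. The counting rule and its strand are not given in the sources used here, so reads cannot be told apart where these genes overlap.

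The difference Pcsk1 minus Pcsk2 within a library, read only between libraries, put the balance of the convertases on one scale. It lay between -3.26 and -2.20 in the 7 beta libraries. It lay between -12.18 and -8.78 in alpha Pdx1 DT, between -11.15 and -9.52 in alpha Pdx1, between -12.04 and -9.26 in alpha DT and between -14.01 and -9.94 in alpha. The 23 libraries sorted as alpha-cells thus stood apart from beta with a gap of over 5 log2 units, and overlapped among themselves.

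The chaperone of Pcsk2, Scg5 (chr2:113776362-113829121, minus strand), was lower in beta and lower in both Pdx1 groups. It was at 13.67, 13.99 and 14.51 (lowest, median and highest) in beta and at 15.90, 16.18 and 16.47 in alpha, without overlap, and the log2 fold change was -2.11 ± 0.16 (limma, adjusted p = 3.95e-12). In alpha Pdx1 it was at 15.46, 15.79, 15.59, 15.25 and 15.62, all below every alpha library, and the log2 fold change against alpha was -0.64 ± 0.18 (limma, adjusted p = 0.0307). Scg5 in alpha Pdx1 DT was at 14.89, 15.70 and 15.96, overlapping alpha, with -0.58 ± 0.17 (limma, adjusted p = 0.0312). In alpha DT it was at 16.37, 16.01, 16.19 and 15.37, with -0.19 ± 0.19 (limma, adjusted p = 0.601). Both Pdx1 groups remained above beta, by 1.53 ± 0.17 in alpha Pdx1 DT (limma, adjusted p = 2.22e-08) and 1.47 ± 0.18 in alpha Pdx1 (adjusted p = 1.12e-07). The alpha Pdx1 call ended on leaving out alpha Pdx1 1, 3 or 4 or alpha 3, 5 or 6 (adjusted p up to 0.124). The alpha Pdx1 DT call ended on leaving out alpha Pdx1 DT 2, 4 or 6 or alpha 1, 3 or 6 (adjusted p up to 0.113).

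Pcsk1n (chrX:7919822-7924410, plus strand), the inhibitor gene, was lowest in beta and second lowest in alpha Pdx1. It was at 11.92, 12.40 and 12.66 (lowest, median and highest) in beta and at 12.96, 14.07 and 14.28 in alpha, without overlap, and the log2 fold change was -1.56 ± 0.24 (limma, adjusted p = 4.61e-06). In alpha Pdx1 it was at 13.31, 12.72, 13.21, 12.58 and 13.31, overlapping alpha only at alpha 7, the alpha library of 12.96. The log2 fold change against alpha was -0.89 ± 0.27 (limma, adjusted p = 0.0475); the adjusted p was 0.0585 without the 5 doubted libraries and up to 0.169 on leaving out 1 library, with the call lost in 20 of 30 such fits. Pcsk1n in alpha Pdx1 DT was at 13.80, 14.27 and 14.80, above every alpha Pdx1 library, with 1.25 ± 0.28 against alpha Pdx1 (limma, adjusted p = 0.00821). In alpha DT it was at 14.52, 15.24, 15.49 and 13.17, with 0.69 ± 0.29 against alpha (limma, adjusted p = 0.166); without alpha DT 4, the lowest, this was 1.17 (adjusted p = 0.00521). Alpha Pdx1 minus beta was 0.67 ± 0.27 (limma, adjusted p = 0.058), and the groups overlapped. This difference passed with library weights (adjusted p = 0.00214), with housekeeping scaling (1.29, adjusted p = 0.000147), with normal scores of ranks (0.0352), with only the groups compared (0.00295) and without alpha Pdx1 4, alpha DT 3, alpha DT 4 or alpha 7 (0.0147 to 0.0441).

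Cpe (chr8:64592542-64693054, minus strand) was lower in alpha Pdx1 DT than in alpha Pdx1 and in alpha, and lower in beta than in alpha. It was at 15.54, 16.04 and 18.27 (lowest, median and highest) in alpha Pdx1 DT, and at 17.31, 19.87, 18.27, 18.63 and 19.27 in alpha Pdx1. The 18.27 of alpha Pdx1 DT was the doubted library labelled alpha Pdx1 DT 5, and the other 5 lay below every alpha Pdx1 library. The log2 fold change, alpha Pdx1 DT minus alpha Pdx1, was -2.31 ± 0.53 (limma, adjusted p = 0.00976), and -2.54 without the 5 doubted libraries (adjusted p = 0.0101). Against alpha, which ran from 16.75 to 19.27 with a median of 18.63, it was -1.83 ± 0.47 (limma, adjusted p = 0.0201), and -2.32 without the 5 doubted libraries (adjusted p = 0.001). That call ended without alpha Pdx1 DT 1, 4 or 6 (adjusted p = 0.0511, 0.0599 and 0.055).

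In alpha DT, Cpe was at 16.28, 16.37, 18.27 and 16.90, and alpha DT minus alpha was -1.24 ± 0.53 (limma, adjusted p = 0.186). In beta it ran from 15.54 to 17.09, and beta minus alpha was -1.70 ± 0.45 (limma, adjusted p = 0.00402), with overlap at alpha 5 and alpha 7. Alpha Pdx1 lay above every beta library (2.18 ± 0.51, limma, adjusted p = 0.00163). That call ended with Rn18s-rs5, a ribosomal RNA row, as a covariate (0.98, limma, adjusted p = 0.359). Rn18s-rs5 ran from 16.90 to 18.27 in alpha Pdx1 and from 19.27 to 19.87 in beta, without overlap. That fit therefore cannot show what part Rn18s-rs5 has in the difference. For alpha Pdx1 DT, the difference from beta was -0.13 ± 0.48 (limma, adjusted p = 0.882), and -0.82 without the 5 doubted libraries (adjusted p = 0.235). The test of whether the toxin difference itself differed with Pdx1 gave -1.07 ± 0.75 for Cpe (limma, adjusted p = 0.679). In that interaction test limma called 0 of the 6 genes and 0 of 16633 (0%), against 1527 of all genes and 0 members at an unadjusted p under 0.05.

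Other measures moved with Cpe across libraries. Ap1s1, a clathrin adaptor subunit and the gene most opposite to Cpe (Pearson's r -0.906 over 30 libraries that share groups and normalization), was at 9.02 to 10.08 in 5 alpha Pdx1 DT libraries and 7.26 in the library labelled alpha Pdx1 DT 5, and at 5.87 to 7.83 in alpha Pdx1. Alpha 5 and alpha 7, the alpha libraries lowest for Cpe, had Ap1s1 at 8.92 and 10.36, against 6.19 to 7.55 in the other 6 alpha libraries. Within the 8 alpha libraries r was -0.9, and within the 7 beta libraries 0.034. Rn18s-rs5 averaged 20.99 ± 1.26 in alpha Pdx1 DT and 17.31 ± 0.56 in alpha Pdx1 (SD, n = 6 and 5), without overlap. With Rn18s-rs5 as a covariate, alpha Pdx1 DT minus alpha Pdx1 was -0.46 for Cpe (limma, adjusted p = 0.996) and 1.83 for Pcsk1n (adjusted p = 0.995). The mean of the leukocyte markers, all 6 of 6 tested, ran from 4.76 to 11.34 in alpha Pdx1 DT, from 4.63 to 5.89 in alpha Pdx1, from 7.97 to 11.65 in alpha DT, from 6.44 to 10.77 in beta and from 4.71 to 7.49 in alpha. With it as a covariate the Cpe difference between both Pdx1 groups was -1.56 (limma, adjusted p = 0.115) and that of alpha Pdx1 DT against alpha -1.27 (adjusted p = 0.134). Between both Pdx1 groups Rn18s-rs5 did not overlap, and the leukocyte mean overlapped only at the library labelled alpha Pdx1 DT 5 (4.76). These fits therefore cannot show what part either measure has in the difference between those groups. The part of these measures in the Cpe, Scg5 and Pcsk1n results was not tested beyond these fits.

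**Figure D3:**
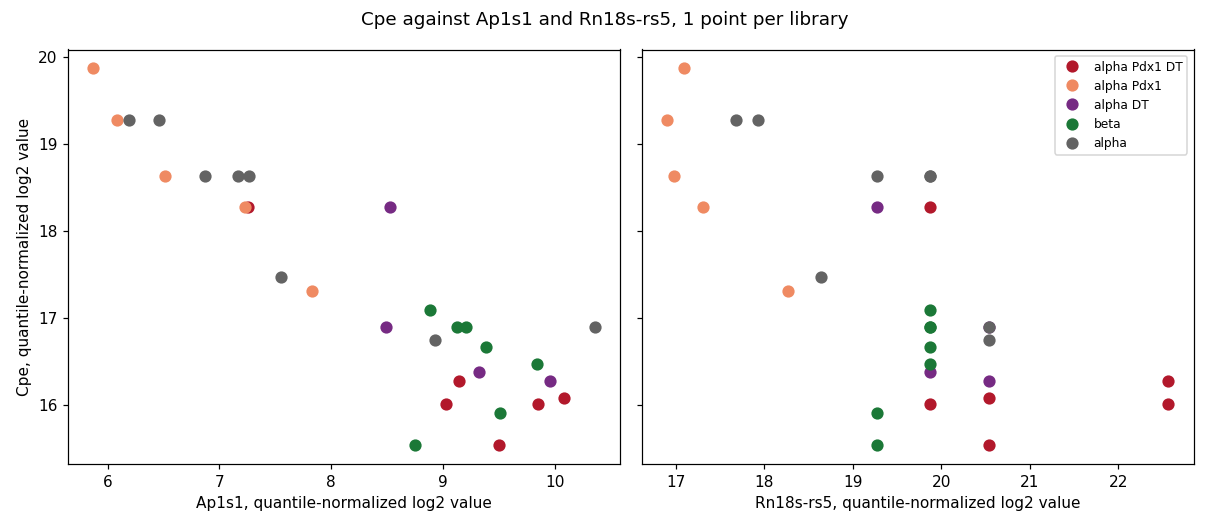
Cpe (y axis) against Ap1s1 (left) and Rn18s-rs5 (right), all quantile-normalized log2 values, with 1 point per library coloured by group. Cpe is high where Ap1s1 is low (r -0.906), and alpha 5 and alpha 7, at 16.75 and 16.90, lie in the Cpe range of beta.

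Pam (chr1:97795114-98095646, minus strand), the amidating enzyme, was lower in beta. It was at 13.07, 13.72 and 13.84 (lowest, median and highest) in beta and at 14.13, 14.39 and 14.88 in alpha, without overlap, with a log2 fold change of -0.89 ± 0.18 (limma, adjusted p = 0.000218). It was at 14.48, 14.75 and 15.54 in alpha Pdx1 DT, at 14.88, 15.00, 14.94, 15.18 and 14.25 in alpha Pdx1 and at 14.76, 15.00, 13.64 and 14.65 in alpha DT. None of these differed from alpha past the threshold; alpha Pdx1 DT minus alpha was 0.40 ± 0.19 (limma, adjusted p = 0.172), and 0.53 without the 5 doubted libraries (adjusted p = 0.0477). Against beta, Pam was higher by 1.28 ± 0.19 in alpha Pdx1 DT (limma, adjusted p = 4.26e-06), by 1.26 ± 0.20 in alpha Pdx1 (adjusted p = 1.23e-05) and by 0.92 ± 0.22 in alpha DT (adjusted p = 0.00153).

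Counted together, beta minus alpha called 6 of 6 members, where 34.5% of all genes tested were called. Of these, 1 was higher (16.9% of all genes) and 5 were lower (17.6%). Pcsk1 lay wholly above alpha, as did 8.11% of all genes, and Scg5, Pcsk1n and Pam wholly below, as did 6.42%. The median log2 fold change of the members was -1.26, against -0.002 over all genes.

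The comparisons of the 3 other alpha-cell groups with beta share the beta libraries, and each called 5 of 6 members with Pcsk1 lower and 4 others higher. Without the 5 doubted libraries 4 members were called in alpha Pdx1 DT minus beta and 4 in alpha DT minus beta, where Pcsk2 was lost, and 5 in alpha Pdx1 minus beta. For alpha Pdx1 DT minus beta 26.3% of all genes were called, 12.9% higher and 13.4% lower; Scg5, Pcsk1n and Pam lay wholly above (5.74% of all genes) and Pcsk1 wholly below (6.65%). For alpha Pdx1 minus beta 32.9% were called, 16.7% higher and 16.2% lower; Cpe, Scg5 and Pam lay wholly above (12.6%) and Pcsk1 wholly below (11.2%). For alpha DT minus beta 30.1% were called, 13.6% higher and 16.6% lower; Scg5 and Pcsk1n lay wholly above (7.21%) and Pcsk1 wholly below (10.4%).

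Fewer members were called among the alpha-cell groups. Alpha Pdx1 minus alpha called Scg5 and Pcsk1n, both lower, where 4.33% of all genes were called and 1.98% were lower; Scg5 lay wholly below alpha, as did 0.559% of all genes. Alpha Pdx1 DT minus alpha called Cpe and Scg5, both lower, where 7.81% were called and 3.75% were lower. Alpha Pdx1 DT minus alpha Pdx1 called Cpe lower and Pcsk1n higher, where 9.22% were called, 4.39% lower and 4.83% higher; Pcsk1n lay wholly above, as did 2.03% of all genes. Alpha DT minus alpha called 0 of 6 by limma (3.26% of all genes), with 2 members and 3335 of 16633 genes at an unadjusted p under 0.05. Alpha Pdx1 DT minus alpha DT called 0 of 6 by limma (2.1%), with 0 members and 2738 of 16633 genes at an unadjusted p under 0.05. These comparisons share libraries with each other.

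**Figure D4:**
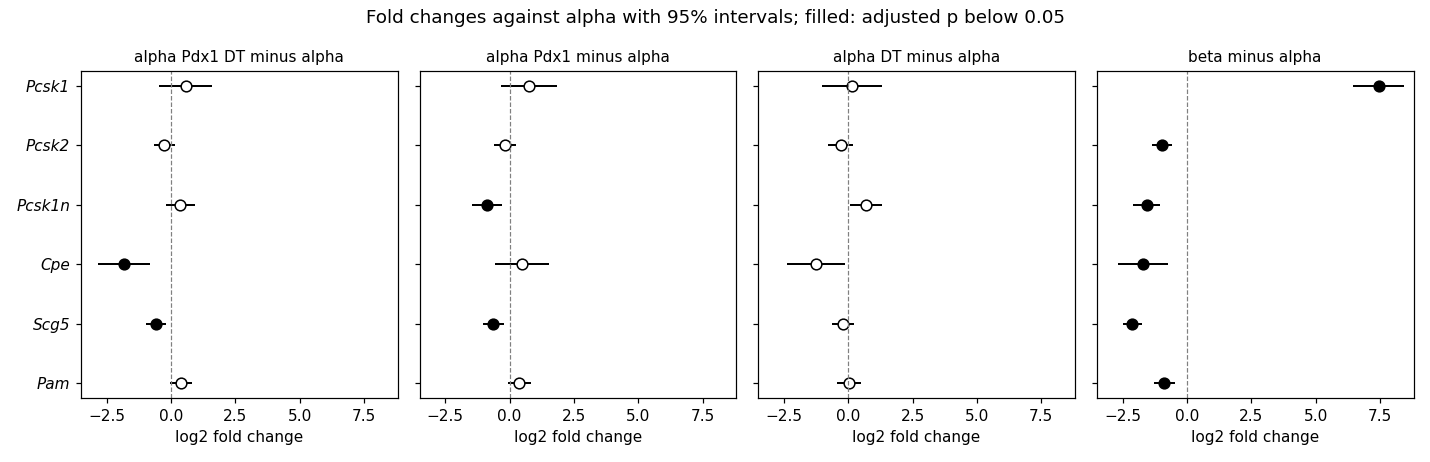
Log2 fold change against alpha (x axis, points) with 95% intervals (lines) of the 6 genes in 4 comparisons; filled points have an adjusted p below 0.05. Pcsk1 is at 7.44 in beta minus alpha and its interval includes 0 in the other 3 panels.

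The other genes of the pathway were read from 6 lists of 64 genes, of which 61 were tested. Beta minus alpha called 27 higher and 5 lower, where 16.9% of all genes were called higher and 17.6% lower. The median was 0.39, against -0.002 over all genes. Scaling to housekeeping genes lowers the median of all genes by 0.92 log2 units in this comparison. With that scaling the counts were 12 higher and 33 lower, and 10 of the called genes changed sign. The list with the most calls was prohormone folding and calcium supply, with 8 higher and 1 lower of 10 (6 higher and 2 lower when scaled to housekeeping genes). Ero1lb, an oxidase that forms disulfide bonds in the endoplasmic reticulum, was higher in beta by 4.34 ± 0.32 (limma, adjusted p = 1e-11), and Atp2a2, a calcium pump of the same compartment, by 2.73 ± 0.24 (adjusted p = 2.16e-10). Prdx4, a peroxidase of that compartment, was lower by 2.23 ± 0.32 (adjusted p = 1.65e-06).

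The shares of all genes called in beta minus alpha, 16.9% higher and 17.6% lower, also apply to the lists that follow. Of the 13 sorting and granule maturation genes tested, 6 were higher in beta and 0 lower. They were led by the protease gene Bace2 (6.98 ± 0.42, limma, adjusted p = 5.57e-14) and the sorting receptor gene Sorl1 (3.58 ± 0.36, adjusted p = 1.11e-09). With housekeeping scaling 2 were higher and 8 lower, and both named genes stayed higher. Of the 15 genes of granule acidification, 7 were higher and 0 lower, led by the proton pump subunits Atp6v1e1 (1.61 ± 0.23) and Atp6v1a (1.51 ± 0.16), and with that scaling 2 were higher and 8 lower, both named genes again among the higher. Among the further convertases, Pcsk6 was higher by 0.86 ± 0.31 (limma, adjusted p = 0.0316), turning to -0.06 with that scaling, and Pcsk5 was lower (-2.14 ± 0.64, adjusted p = 0.00921); 2 of the 7 were higher and 1 lower, against 1 higher and 4 lower with that scaling. Of 10 trimming peptidases tested, 3 were higher, including the dipeptidyl peptidase gene Dpp4 (1.88 ± 0.22) and the carboxypeptidase gene Cpm (1.65 ± 0.36). The 2 lower were the cathepsin gene Ctsz (-1.94 ± 0.27) and Cpxm1 (-1.90 ± 0.67). Cpxm1 averaged 4.66 in alpha and 2.75 in beta, and Pcsk5 averaged 5.57 and 3.43. These means lie below the first quartile of every library (5.93 or above), so the Cpxm1 and Pcsk5 calls rest on low values. With housekeeping scaling 1 trimming peptidase was higher and 7 lower, Dpp4 stayed higher and the Cpm call ended (0.73, limma, adjusted p = 0.0821). Of 6 genes of amidation, pyroglutamate formation and copper supply, the copper transporter gene Atp7a was higher by 1.31 ± 0.18 and Qpct, whose product forms pyroglutamate, lower (-2.40 ± 0.42); with that scaling 0 were higher and 4 lower, and the Atp7a call ended (0.39, adjusted p = 0.0867).

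**Figure D5:**
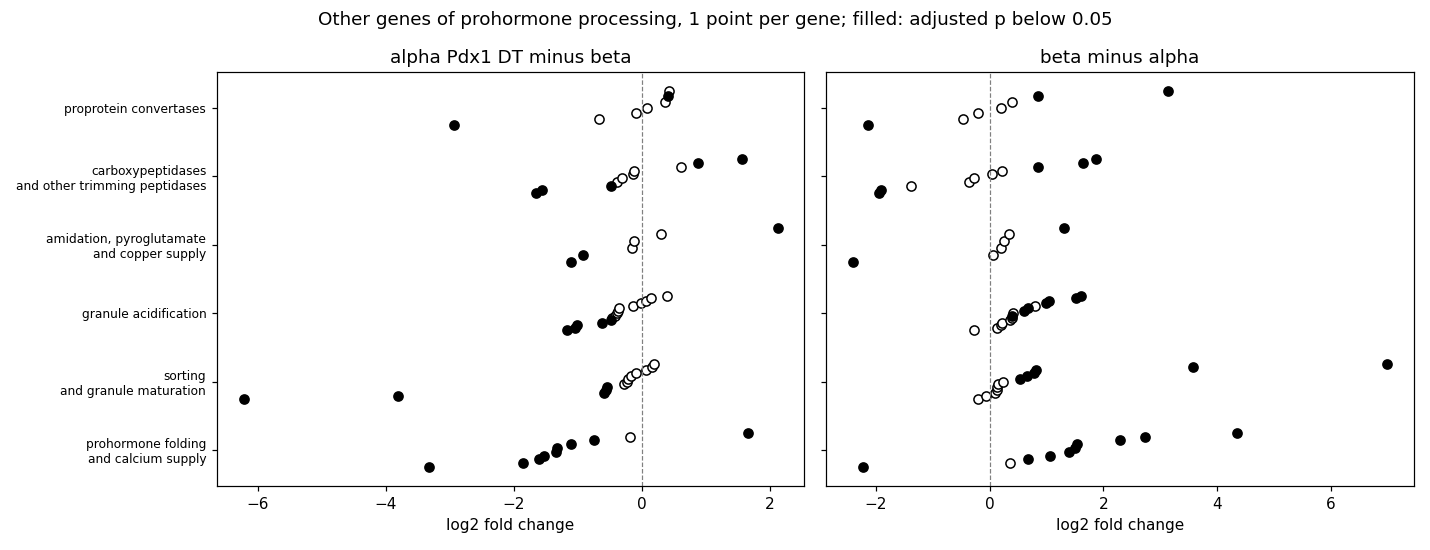
Log2 fold change (x axis) of each gene in 6 lists (rows; vertical spread within a row has no meaning, and the x axes of the panels differ) for alpha Pdx1 DT minus beta and beta minus alpha; filled points have an adjusted p below 0.05. The point at 6.98 in beta minus alpha is Bace2. There 8 of 10 folding and calcium genes are called higher, against 16.9% of all genes.

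Fewer calls were made in these lists among the alpha-cell groups, as over all genes. In alpha Pdx1 minus alpha, where 4.33% of all genes were called, 3 of 61 rose and 0 fell: Bace2 (1.79 ± 0.46, limma, adjusted p = 0.0207), Ero1lb (1.29 ± 0.35, adjusted p = 0.0313) and the proton pump accessory gene Atp6ap2 (0.84 ± 0.25, adjusted p = 0.048). Without the 5 doubted libraries 4 rose and 1 fell, and Atp6ap2 had an adjusted p of 0.0598; scaled to housekeeping genes 2 rose and 1 fell, and Atp6ap2 was lost (adjusted p = 0.229). Bace2 averaged 8.50 ± 0.91 in alpha Pdx1, 13.68 ± 0.41 in beta and 6.71 ± 1.16 in alpha (SD, n = 5, 7 and 8). In alpha DT minus alpha, where 3.26% of all genes were called, 1 of 61 rose, Atp6v1a (0.64 ± 0.19, adjusted p = 0.0489), and 1 fell, the convertase gene Pcsk7 (-1.004 ± 0.26, adjusted p = 0.0288); scaled to housekeeping genes 0 rose and 5 fell, and the Atp6v1a call ended (0.44, adjusted p = 0.17).

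In alpha Pdx1 DT minus alpha Pdx1, where 9.22% of all genes were called, 6 of the 61 were called. Of these, 3 rose (Atp6v1f 1.63 ± 0.48, Atp6v0c 0.92 ± 0.21 and the calcium pump gene Atp2a3 0.89 ± 0.22) and 3 fell (Atp6ap2 -0.84 ± 0.27, Ctsl, a cathepsin gene, -0.80 ± 0.21, and Slc31a1, a copper importer gene, -0.73 ± 0.21), while without the 5 doubted libraries 2 rose and 1 fell. In alpha Pdx1 DT minus alpha, 3 rose (Atp2a2 0.88 ± 0.26, Ptprn 0.84 ± 0.21 and Atp2a3 0.68 ± 0.20) and Slc31a1 fell (-0.67 ± 0.19), where 7.81% of all genes were called. Without the 5 doubted libraries 11 rose and 4 fell, while scaled to housekeeping genes 0 rose and 12 fell, so the calls of the 3 risers ended. Against alpha DT, with 2.1% of all genes called, alpha Pdx1 DT had 2 that rose (Atp6v0a1 0.84 ± 0.21 and Cpd 0.75 ± 0.18), and 8 rose and 1 fell without those libraries; scaled to housekeeping genes 0 rose. Set against beta, where 12.9% of all genes were called higher and 13.4% lower, alpha Pdx1 DT had 5 genes higher and 24 lower. Scaled to housekeeping genes 13 were higher and 16 lower. Among the lower without that scaling were Bace2 (-6.22 ± 0.45, limma, adjusted p = 6.49e-12) and Ero1lb (-3.33 ± 0.34, adjusted p = 1.2e-08).

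Across the 30 libraries, which share groups and normalization, the 3 genes most like Pcsk1 were Prlr (Pearson's r 0.969), Zdhhc2 (0.968) and Slc2a2 (0.960), the glucose transporter gene of beta-cells. Within the 7 beta libraries their r with Pcsk1 was 0.827, 0.814 and 0.839, and within the 8 alpha libraries 0.6, 0.463 and 0.831. Beta 1, where Gcg was at the top value, had the lowest Pcsk1 of its group. Those most like Pcsk2 were Astn2 (0.783), Gm7105 (0.777) and Nr3c2 (0.776). Their r with Pcsk2 was -0.721, 0.772 and -0.348 within beta, and 0.979, 0.358 and 0.786 within alpha. Those most like Pam were Chl1 (0.872), C630020P19Rik (0.871) and Fam84a (0.871). Their r with Pam was 0.234, 0.833 and 0.258 within beta, and 0.511, 0.699 and 0.466 within alpha. Those most like Scg5 were the processed pseudogene Rps15a-ps6 (0.927), Ctxn2 (0.914) and Lrrtm3 (0.914). Their r with Scg5 was 0.822, 0.524 and 0.558 within beta, but -0.355, 0.103 and -0.356 within alpha. Pcsk1n was most like the ribosomal protein gene Rps16 (0.895) and the processed pseudogenes Rpl34-ps1 (0.901) and Rps16-ps2 (0.898). In that order, r was 0.06, 0.436 and 0.105 within beta, and 0.208, 0.877 and 0.328 within alpha. Cpe was most like the processed pseudogenes Gm16165 (0.888) and Gm7290 (0.883) and then Rbm43 (0.870). Their r with Cpe was 0.618, 0.865 and -0.378 within beta, and 0.723, 0.939 and 0.928 within alpha. Within groups the 6 members kept little of each other's pattern: the highest r between any pair was 0.374, for Pcsk1n with Scg5, and the lowest -0.371, for Cpe with Pam.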

How the data were processed

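Bulk RNA-seq values of 17775 genes in 30 libraries were used. Per the submitters' processing notes, reads were aligned with GSNAP to GRCm38; the counting rule and its strand are not given in the sources used here. Values were deposited by the authors as quantile-normalized log2 values. From these, limma 3.58.1 in R 4.3.3 fitted 1 mean per group with a variance trend and robust empirical Bayes, over the 16633 genes that reached 5 in 4 or more libraries (1142 did not). P-values are two-sided and adjusted by Benjamini-Hochberg within each comparison. Samples were grouped by the genotype and toxin labels. Named genes were the 6 members, the substrates, Pdx1 and the 3 genes most correlated with each member. From each list and comparison, up to 2 risers and 2 fallers among genes past 0.05 were also named. Ap1s1 and Rn18s-rs5 were named after their values were seen. Genes that overlap a member in position were named outside this rule. The members and lists were chosen with earlier results of these data known. The fit was tested on simulated data. Alternatives covered filters, scaling, weights, covariates and left-out libraries. Gene positions are from GENCODE M21. Promoters came from RefSeq for 5 of the 6 genes. Figures used Python 3.11.15 and matplotlib 3.10.9. A gene that the naming rule picks is not reported here.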

Additional observations from a re-analysis of the deposited data

Results flagged for a closer look

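Of all values, 6 stood apart from the rest of their group by the gap to their nearest neighbour, among 35 groups of values examined; chance gives about 1 in 20. Pcsk1 was at 3.92 in alpha 3, the lowest of its group and below the first quartile (5.93 or above), with the next at 6.02. The Pcsk1 minus Pcsk2 difference of alpha 3, which holds the same low value, was -14.01, with the next at -11.66. Pcsk1n was at 12.96 in alpha 7, against 13.67 or more in the other alpha libraries. Cpe was at 18.27 in the library labelled alpha Pdx1 DT 5, against 16.28 or less in the rest of its group. Scg5 was at 14.89 in alpha Pdx1 DT 4, against 15.62 or more in the others. Pam was at 13.07 in beta 2, against 13.51 or more in the other beta libraries.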

How the results depend on the processing

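No paired analysis was possible because the labels give no replicate numbers. Depth is unknown, so the limits it sets could not be given. Over the 13 alternative fits and the 30 fits that leave out 1 library, all 6 members stayed past the threshold in beta minus alpha, and Pcsk1 stayed lower than beta in all 3 other comparisons with beta. Scaling to housekeeping genes moved the median of all genes by -0.92 in beta minus alpha and changed no called direction of a member. The cause of the changes below was not tested.

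The number of members called in alpha Pdx1 minus alpha was 2. It became 0 with no trend and no robust variances and in the fit that had Rn18s-rs5 as covariate. It became 1 with normal scores of ranks, without the 5 doubted libraries and without both alpha 4 and alpha Pdx1 DT 5. On leaving out 1 library it ran from 0 to 2. In alpha Pdx1 DT minus alpha Pdx1 it was 2. It became 0 with Rn18s-rs5, a covariate whose values in these groups do not overlap. With leukocyte markers as a covariate, whose means overlap only at the library labelled alpha Pdx1 DT 5, it became 1. In alpha Pdx1 DT minus alpha it was 2 and became 1 with normal scores and 0 with only the groups compared, with Rn18s-rs5 and with leukocyte markers, but 3 with housekeeping scaling, where Pcsk2 was gained, and without the 5 doubted libraries, where Pam was gained; it ran from 0 to 2 on leaving out 1 library. In alpha DT minus alpha it was 0 and ran from 0 to 1. In the comparisons with beta it was 5 each; over the other fits and left-out libraries it ran from 4 to 5 in alpha Pdx1 DT, from 4 to 6 in alpha Pdx1 and from 4 to 5 in alpha DT.

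Among the 6 members, only uncalled differences changed sign; called genes of the pathway lists that did are counted with those lists. With housekeeping scaling, Pcsk1 was -0.057 and Pam -0.17 in alpha DT minus alpha, Scg5 -0.03 and Pam -0.067 in alpha Pdx1 DT minus alpha Pdx1, Pcsk2 -0.14 in alpha Pdx1 DT minus alpha DT, Pcsk1n -0.024 in alpha Pdx1 DT minus alpha, Cpe 0.40 in alpha Pdx1 DT minus beta and Pam 0.10 in the interaction. With library weights, Pcsk1 was 0.34 and Pam -0.054 in alpha Pdx1 DT minus alpha Pdx1, Pcsk2 -0.19 in alpha Pdx1 DT minus alpha DT and Cpe -0.09 in alpha DT minus beta. With Rn18s-rs5, Pam was -0.094 in alpha DT minus alpha and -0.60 in alpha Pdx1 DT minus alpha Pdx1, Cpe -0.52 in alpha Pdx1 minus alpha, 0.52 in alpha Pdx1 DT minus beta and 0.40 in the interaction, and Pcsk2 -0.038 in alpha Pdx1 DT minus alpha DT and -0.031 in the interaction. With leukocyte markers, Pam was -0.20 in alpha DT minus alpha, -0.14 in alpha Pdx1 DT minus alpha Pdx1 and 0.059 in the interaction, Pcsk1 0.20 and Pcsk2 0.13 in alpha Pdx1 DT minus alpha Pdx1, and Pcsk2 -0.10 in alpha Pdx1 DT minus alpha DT. With acinar markers, Pcsk2 was 0.093 in alpha Pdx1 DT minus alpha Pdx1 and -0.034 in alpha Pdx1 DT minus alpha DT. Without the 5 doubted libraries, Pam was -0.046 in alpha Pdx1 DT minus alpha Pdx1 and Pcsk2 -0.08 in alpha Pdx1 DT minus alpha DT; without the close pair Pcsk2 was -0.08 there and Pam 0.06 in the interaction. With normal scores Pam was 0.013 in the interaction.

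On leaving out 1 library, alpha DT minus alpha ran from -0.40 to 0.65 for Pcsk1, from -0.32 to 0.011 for Scg5 and from -0.13 to 0.33 for Pam. Alpha Pdx1 DT minus alpha Pdx1 ran from -0.46 to 0.18 for Pcsk1, from -0.20 to 0.005 for Pcsk2, from -0.012 to 0.20 for Scg5 and from -0.13 to 0.11 for Pam. Alpha Pdx1 DT minus alpha DT ran from -0.085 to 0.97 for Pcsk1 and from -0.081 to 0.12 for Pcsk2. Cpe in alpha Pdx1 DT minus beta ran from -0.51 to 0.035. The interaction ran from -0.84 to 0.21 for Pcsk1 and from -0.30 to 0.15 for Pam.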
